A study of Bos indicus x Bos taurus with 17 samples.

Results

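A set of 41 genes that encode blood coagulation factors, their close regulators and complement components was followed in bovine fetal liver and skeletal muscle. The genes were picked by symbol from the count tables of both tissues, and all 41 were found, each on 1 line, among the 21048 genes listed per tissue. Poly(A) RNA was sequenced from 6 fetuses at about day 105 of gestation, with 1 liver and 1 muscle library per fetus, 12 libraries in all. All fetuses were labelled healthy and were F1 hybrids of Nelore (Bos taurus indicus) and Holstein (Bos taurus taurus) cattle. The 4 ART-Normal fetuses (1 to 4) were conceived by assisted reproduction, produced in vitro, and had a body weight like that of controls, while the 2 Control-AI fetuses (2 and 4) were conceived by artificial insemination. The labels include ART-Normal 4, which the study's methods do not list.

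Coagulation is a chain of proteases that ends with thrombin cutting fibrinogen into fibrin, and the complement system is a chain of proteases that tags and perforates foreign cells. Both systems share a design of inactive precursors in plasma, cofactors that hold the proteases on a surface, and inhibitors that keep the chain from running on. Hepatocytes make most of these plasma proteins, while endothelial cells, megakaryocytes, macrophages and fibroblasts make some of them outside the liver.

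Total counts ranged from 18454088 to 43339598 per library in liver and from 12433300 to 23578362 in muscle. Levels are given as CPM, the counts of a gene scaled to a common library total, after TMM scaling within the tissue, and 3 counts corresponded to 0.063 to 0.24 CPM. Reads were counted over whole gene spans, introns included, so CPM are compared between libraries for 1 gene and not between genes. All 10 hepatocyte markers passed the test as higher in liver and all 10 skeletal muscle markers as higher in muscle, and 6 of 6 megakaryocyte and 8 of 10 erythroid markers were also higher in liver. Control-AI 2 lay apart from the other 5 libraries in both tissues, at -43.0 on the first principal component of liver and -42.4 on that of muscle, where the others lay at 2.02 or above. The summed level of the hepatocyte markers in muscle was 365 CPM in Control-AI 2 and 26.5 to 64.2 CPM in the other 5 fetuses, and the summed level of the skeletal muscle markers in liver was 32.3 CPM against 6.47 to 9.14 CPM. In bulk tissue, fewer cells of a type and less RNA per cell cannot be told apart.

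The 41 genes together took up 2.20% to 2.62% of the counts of a liver library and 0.036% to 0.053% of those of a muscle library. In every fetus, 36 of the 41 genes had a higher CPM in liver than in muscle, and 4 genes, F3, TFPI, F8 and C7, had a higher CPM in muscle. C2 was mixed. In muscle, 13 genes had a median of 5 CPM or more over the 6 libraries, 9 had a median from 1 to under 5 CPM, and 19 had a median under 1 CPM. MBL2 had no count in any muscle library.

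**Figure D1:**
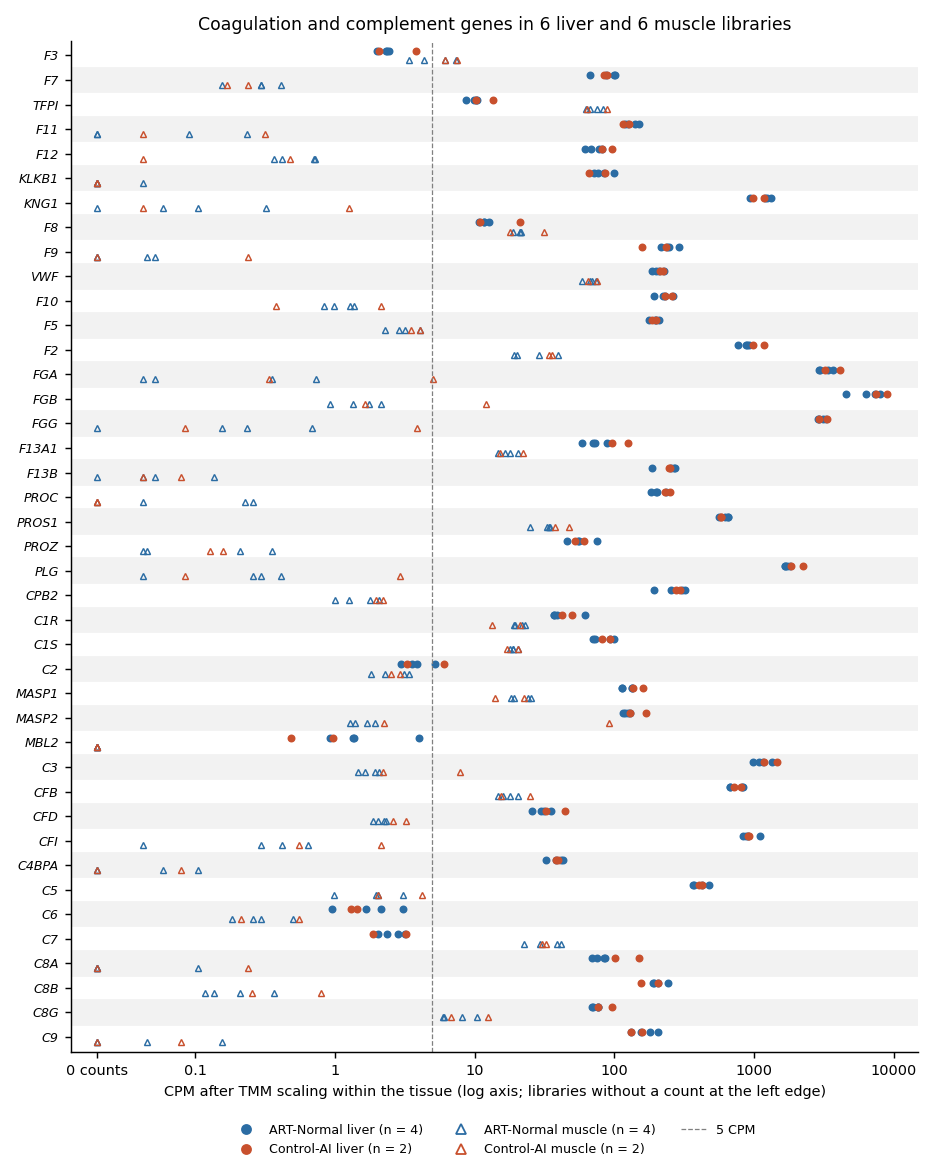
CPM after TMM scaling (log axis) of the 41 genes, 1 row per gene, with filled circles for liver and open triangles for muscle, and 1 symbol per library. Liver levels lie below 5 CPM for F3, C6, C7 and MBL2, and 19 genes have a muscle median under 1 CPM, while F3, TFPI, F8 and C7 have the muscle triangles to the right of the liver circles.

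Between the tissues, 38 of the 41 genes could be tested, since at least 1 group of libraries had 5 CPM or more throughout, and all 38 passed at an adjusted p of 0.05 by edgeR's quasi-likelihood test over all 12 libraries. Of these, 34 were higher in liver and 4 in muscle, where over all 12923 genes tested 40.2% were called higher in liver and 39.9% higher in muscle. Only 13 of the 41 genes reached 5 CPM throughout a muscle group, so most of the 38 entered through liver, where they were high. F3 and C7 entered through muscle alone, where they were high. The filter thus helped to set these counts. With no filter on low counts all 41 passed, beside 12684 of 18749 genes. Over 1000-fold higher levels in liver were found for 14 genes, 10 to 1000-fold for 15 and under 10-fold for 5. All 38 also passed, in the same direction, in each fit that left out the libraries of 1 fetus. Sizes moved more. Without Control-AI 2 the fold was over 1.5 times larger for 13 genes (F11, F12, KNG1, F9, F10, FGA, FGB, FGG, PLG, MASP2, C4BPA, C8A and C9), and the log2 fold change of MASP2 went from 4.14 to 6.17. KNG1, F9, C4BPA and C9 became over 1.5 times smaller without Control-AI 4, C8A and C9 became larger without ART-Normal 4, and KLKB1 became larger without ART-Normal 1. In all muscle libraries together, F11 and PROC had 11 counts, F13B 7, F9, C8A and C9 5, C4BPA 4 and KLKB1 1. The folds of these genes are imprecise.

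Coagulation starts when tissue factor, encoded by F3, binds factor VII in plasma, and TFPI, the tissue factor pathway inhibitor, blocks that complex. F7 had 67.0 to 102 CPM in liver and 0.16 to 0.41 CPM in muscle, a log2 fold change of 8.64 (SE 0.22). Both other genes went the opposite way. F3 (chromosome 3 from 48954585 to 48965468 on ARS-UCD1.2) had 7.37, 4.35, 3.42 and 6.19 CPM in ART-Normal muscles 1 to 4 and 7.46 and 6.15 CPM in the control muscles 2 and 4, while the livers had 2.00 to 3.80 CPM. TFPI (chromosome 2 from 8776994 to 8876692) had 75.0, 82.6, 66.7 and 62.3 CPM in ART-Normal muscle and 63.7 and 88.3 CPM in Control-AI muscle, against 8.62 to 13.5 CPM in the livers. The log2 fold changes of liver over muscle were -1.08 (SE 0.24, adjusted p = 0.00118) for F3 and -2.63 (SE 0.13, adjusted p = 5.79e-10) for TFPI by edgeR's quasi-likelihood test.

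The contact system, in which factor XII, plasma kallikrein (KLKB1) and high molecular weight kininogen (KNG1) activate factor XI, was almost without counts in muscle. F11 ranged from 115 to 151 CPM in liver and from 0 to 0.32 CPM in muscle, and F12 from 61.8 to 96.0 CPM and from 0.042 to 0.72 CPM. KLKB1 had 65.9 to 98.9 CPM in liver and a single count among the 6 muscle libraries, which gives a ratio of pooled CPM of 9500 (95% counting interval 1705 to 375276). KNG1 ranged from 939 to 1321 CPM in liver. In muscle it had 0, 0.059, 0.32 and 0.10 CPM in ART-Normal 1 to 4, 1.27 CPM in Control-AI 2, and 0.042 CPM in the other control, so that 1 library stood above the rest. F11 and KLKB1 are neighbours on chromosome 27, with 4155 bp between them.

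Factor VIII is carried in plasma by von Willebrand factor, and both are known as endothelial products, while factor IX, its partner protease, is made by hepatocytes. F9 had 159 to 290 CPM in liver and 0 to 0.24 CPM in muscle. VWF (chromosome 5 from 104187287 to 104345683) had 187 to 226 CPM in liver. Its muscle levels were 66.5, 58.9, 69.2 and 74.2 CPM in ART-Normal 1 to 4, against 64.8 and 75.1 CPM in controls 2 and 4, a log2 fold change of 1.78 (SE 0.091) toward liver. F8 (chromosome X from 36013125 to 36155734) was the reverse, with 10.7 to 21.1 CPM in liver. In muscle F8 had 21.2, 18.9, 21.1 and 21.4 CPM in ART-Normal 1 to 4, against 31.2 and 18.1 CPM in controls 2 and 4, a log2 fold change of -0.57 (SE 0.18, adjusted p = 0.00927, edgeR's quasi-likelihood test). Of 8 endothelial markers, 7 passed as higher in muscle and none as higher in liver, and the 6 megakaryocyte markers were all higher in liver. The part of either cell type in the levels of VWF and F8 was not tested. Against a 2-fold difference, tested with edgeR's glmTreat, 36 of the 38 genes passed and F3 and F8 did not.

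The common pathway leads from factor X with its cofactor factor V to prothrombin (F2). F10 had 191 to 262 CPM in liver and 0.38 to 2.14 CPM in muscle, and F5 had 176 to 210 CPM and 2.28 to 4.07 CPM. F2 (chromosome 15 from 76656431 to 76671235) was the member of this step with a clear muscle level, at 19.2, 28.9, 20.1 and 39.5 CPM in ART-Normal 1 to 4, against 36.0 and 34.4 CPM in controls 2 and 4. Its log2 fold change of liver over muscle was 5.12 (SE 0.22). F10 lies on chromosome 12 next to F7 and PROZ, and the annotated spans of F7 and F10 share 89 bp on the same strand, so reads there could belong to either gene.

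Fibrinogen is built of 3 chains, encoded by FGA, FGB and FGG, which lie together on chromosome 17 from 2840702 to 2902370, and factor XIII, with its A subunit from F13A1 and its B subunit from F13B, cross-links fibrin. FGB was at 7380, 4574, 7969 and 6352 CPM in ART-Normal livers 1 to 4, against 8905 and 7446 CPM in control livers 2 and 4. FGA ranged from 2941 to 4139 CPM and FGG from 2873 to 3306 CPM in liver. The ratio of FGB to FGG within a liver library ran from 1.57 in ART-Normal 2 to 2.69 in Control-AI 2, and that of FGA to FGG from 1.01 to 1.25 in the same 2 libraries. The subunits of factor XIII separated by tissue, since F13B had 186 to 271 CPM in liver and at most 0.14 CPM in muscle, while F13A1 was present in both. F13A1, which macrophages and megakaryocytes are known to make, had 16.5, 18.04, 20.4 and 14.8 CPM in ART-Normal muscle and 15.2 and 22.1 CPM in Control-AI muscle, a log2 fold change of 2.46 (SE 0.15) toward liver. The 6 macrophage markers were also all higher in liver.

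Protein C (PROC) with its cofactor protein S (PROS1) inactivates factors V and VIII, protein Z (PROZ) assists an inhibitor of factor X, plasminogen (PLG) is the precursor of the enzyme that dissolves fibrin, and CPB2 slows that dissolution. PROC had 182 to 249 CPM in liver. In muscle it had no count in Control-AI 2 and 4 and 0.26 CPM or less in ART-Normal 1 to 4, and the ratio of pooled CPM was 2287 (95% counting interval 1278 to 4582). The fitted fold of 8794 lay above that interval. PROZ had 45.7 to 75.1 CPM in liver and 0.042 to 0.35 CPM in muscle, and CPB2 had 194 to 322 CPM and 0.999 to 2.21 CPM. PLG, with 1654 to 2228 CPM in liver, had a log2 fold change of 11.83 (SE 0.65). PROS1 (chromosome 1 from 38203318 to 38267163) was the only member of this group with 5 CPM or more in muscle, where it ranged from 25.1 to 47.3 CPM, against 559 to 651 CPM in liver, a log2 fold change of 4.18 (SE 0.13).

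Complement can be started by the C1 complex, whose proteases are C1R and C1S, or by mannose-binding lectin (MBL2) and its proteases MASP1 and MASP2. Of the latter, MASP2 cuts both C4 and C2. C1R and C1S, 20094 bp apart on chromosome 5, were both less than 10-fold higher in liver, with log2 fold changes of 1.38 (SE 0.17) and 2.32 (SE 0.12). C1R had 19.2, 22.0, 19.6 and 23.0 CPM in ART-Normal muscle and 13.4 and 21.2 CPM in Control-AI muscle, and C1S had 18.1, 20.5, 18.9 and 19.0 CPM and 17.1 and 20.6 CPM. MASP1 had 18.1, 25.2, 19.1 and 24.3 CPM in ART-Normal muscle and 22.7 and 14.0 CPM in Control-AI muscle, a log2 fold change of 2.92 (SE 0.15) toward liver. MBL2 was scarce even in liver, at 4.02, 0.925, 1.38 and 1.35 CPM in ART-Normal 1 to 4, against 0.967 and 0.488 CPM in controls 2 and 4. With no count in muscle, it was at least 56.7-fold higher in liver, taking 3 counts over all muscle libraries as the floor. C2 had 2.99 to 6.08 CPM in liver and 1.82 to 3.42 CPM in muscle and was under the filter. With no filter on low counts C2, C6 and MBL2 also passed as higher in liver by edgeR's quasi-likelihood test, C2 at a log2 fold change of 0.79 (adjusted p = 0.0194) and C6 at 2.40 (adjusted p = 3.03e-04). It lies 431 bp from CFB on chromosome 23.

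C3 is cut by a convertase that holds the protease from CFB, which factor D (CFD) activates, and factor I (CFI) and C4b-binding protein (C4BPA) take the convertases apart. C3 had 984 to 1455 CPM in liver and 1.46 to 7.86 CPM in muscle, and CFI had 830 to 1110 CPM and 0.042 to 2.14 CPM. CFB was at 671 to 833 CPM in liver. It kept a muscle level of 14.7, 17.8, 15.9 and 20.5 CPM in ART-Normal 1 to 4 and of 25.0 and 15.4 CPM in Control-AI 2 and 4, a log2 fold change of 5.49 (SE 0.18). CFD, known as an adipocyte product in other settings, had 25.9 to 44.5 CPM in liver and 1.88 to 3.25 CPM in muscle, and C4BPA had 32.3 to 42.7 CPM in liver and at most 0.10 CPM in muscle.

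C5 to C9 form the pore of the membrane attack complex, and here the genes split by tissue. C5 had 367 to 478 CPM in liver and 0.99 to 4.21 CPM in muscle, and C9 had 132 to 207 CPM in liver and at most 0.16 CPM in muscle. C6, which binds C5b first, had 0.96 to 3.06 CPM in liver and 0.18 to 0.56 CPM in muscle and was under the filter. C7 (chromosome 20 from 33535885 to 33592915) had 41.4, 38.7, 22.6 and 29.6 CPM in ART-Normal muscle and 30.6 and 32.3 CPM in Control-AI muscle, but only 1.87 to 3.21 CPM in liver. Its log2 fold change of -3.48 (SE 0.21, adjusted p = 4.36e-09, edgeR's quasi-likelihood test) was the lowest of the 38 genes. Of the 3 chains of C8, C8A and C8B, neighbours on chromosome 3, had at most 0.24 and 0.79 CPM in muscle. C8G, which lies on chromosome 11 from 105985405 to 105987650, had 8.08, 5.99, 10.3 and 6.04 CPM in ART-Normal muscle and 12.5 and 6.74 CPM in Control-AI muscle, against 69.7 to 96.2 CPM in liver.

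Within liver, the levels of these genes were close between fetuses. Of the 36 genes with 5 CPM or more throughout a group, 34 had a highest library under 2 times the lowest, and C8A and F13A1 were the exceptions. The share of all liver genes with so small a spread was not computed. The coefficient of variation over the 6 livers was 6.14% for F5, 6.27% for PROS1, 6.34% for FGG and 7.08% for VWF, and it was 31.6% for C8A, 30.1% for F8 and 27.8% for F13A1.

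The comparison of conception groups asks whether fetuses produced in vitro that reached a normal weight differ from fetuses conceived by artificial insemination. In liver, none of the 36 genes tested passed at an adjusted p of 0.05 by edgeR's quasi-likelihood test. Over all 11304 genes 0% were called, and the lowest adjusted p among the 36 was 0.453. At an unadjusted p under 0.05 there were 2 of the 36 genes, C8A and F13A1, both lower in ART-Normal, while 8.39% of all genes were at that level. The likelihood ratio test of edgeR and DESeq2 also called none of the 36, with lowest adjusted p-values of 0.0509 and 0.0695. The median log2 fold change of the 36 was -0.08, with 25 below 0 and 11 above, beside a median of 0.01 over all genes. The 95% confidence interval lay within a 2-fold change in either direction for 33 of the 36 genes, the exceptions being C8A, F13A1 and F8. With library size alone as the scaling, the median of all liver genes moved to 0.21 and that of the 36 to 0.12, so directions here are relative to the TMM scaling.

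**Figure D2:**
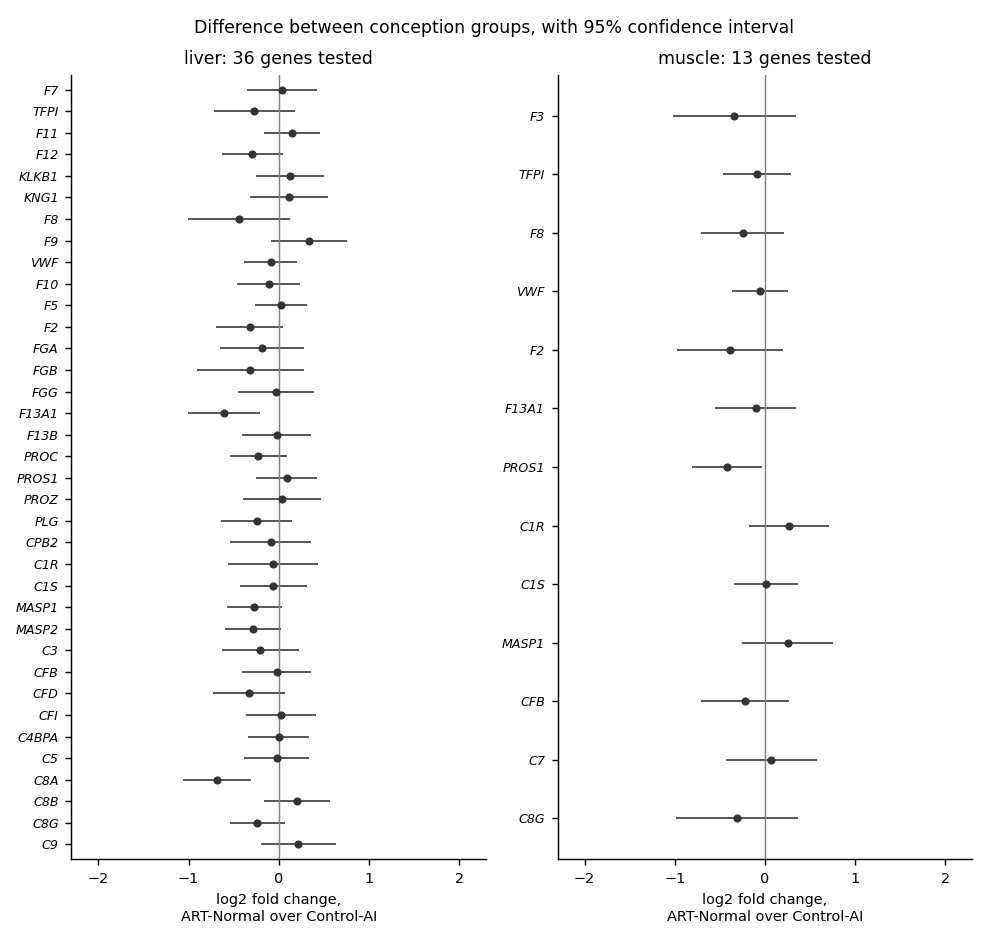
Fold change (log2) between ART-Normal and Control-AI, positive where ART-Normal is higher (point), with its 95% confidence interval from edgeR's quasi-likelihood fit (line), for 36 genes in liver and 13 in muscle, ordered by role. The intervals of C8A and F13A1 in liver and of PROS1 in muscle leave out 0, and no gene shown passed after adjustment over all genes.

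C8A encodes the chain of C8 that enters the membrane, and in liver it had 85.3, 83.8, 75.6 and 68.9 CPM in ART-Normal 1 to 4, against 151 and 101 CPM in controls 2 and 4. Every ART-Normal value lay below both controls. The log2 fold change was -0.68 (SE 0.17, unadjusted p = 0.0025, adjusted p = 0.453 by edgeR's quasi-likelihood test). Without Control-AI 4 it was -0.94, with 1 control left, and over all alternative fits it ran from -0.94 to -0.36. The C8A gene lies on chromosome 3 from 89219876 to 89291700. Its neighbour C8B had 154 to 241 CPM with a log2 fold change of 0.20 (SE 0.16), and the value of Control-AI 2 was the lowest of the 6. The third chain, C8G, had 70.9, 76.0, 69.7 and 76.6 CPM against 96.2 and 76.7 CPM. There ART-Normal 4 and Control-AI 4 were nearly level, and Control-AI 2 stood above all others.

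F13A1 (chromosome 23 from 48770276 to 48913854) had 70.2, 89.2, 72.4 and 58.9 CPM in ART-Normal livers and 96.5 and 125 CPM in Control-AI livers. The groups did not overlap, and the log2 fold change was -0.61 (SE 0.18, unadjusted p = 0.00667, adjusted p = 0.498 by the same edgeR test). Its partner F13B had 271, 265, 255 and 186 CPM against 250 and 246 CPM, so that those groups overlapped. The summed level of the macrophage markers was 364 to 411 CPM in ART-Normal livers and 384 and 421 CPM in Control-AI livers, and that of the megakaryocyte markers 479 to 567 CPM and 347 and 493 CPM. Their part in the level of F13A1 was not tested.

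Groups that did not overlap were found for 6 of the 36 genes, F2, F13A1, PLG, MASP1, C8A and C8G, all with ART-Normal below Control-AI and none above. Over all genes tested in liver, 9.16% had ART-Normal below and 9.23% had ART-Normal above. F2 had 765, 891.6, 877 and 920 CPM in ART-Normal livers and 1177 and 984 CPM in Control-AI livers. PLG (chromosome 9 from 96575186 to 96622803) had 1720, 1654, 1670 and 1810 CPM against 2228 and 1830 CPM, so that ART-Normal 4 and Control-AI 4 were close. MASP1 (chromosome 1 from 80005963 to 80074212) had 113, 133, 113 and 133 CPM against 162 and 136 CPM. The log2 fold changes were -0.32 (SE 0.17) for F2, -0.24 (SE 0.18) for PLG, -0.27 (SE 0.14) for MASP1 and -0.24 (SE 0.13) for C8G. In F2, PLG, MASP1, C8A and C8G it was Control-AI 2 that stood highest, and in F13A1 it was Control-AI 4. With library size alone as the scaling, only C8A of the 6 kept groups that do not overlap. F11 and FGG then had ART-Normal above, beside 17.8% of all genes above and 1.77% below. With upper quartile scaling 9 genes lay below and none above, beside 12.1% and 6.73% of all genes. Without Control-AI 2, 7 genes lay below and 1 above, where 18% of all genes lay below and 18.5% above. Without Control-AI 4, 15 lay below and 3 above, beside 28.8% and 28.3% of all genes. These alternatives were added after the data were seen.

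**Figure D3:**
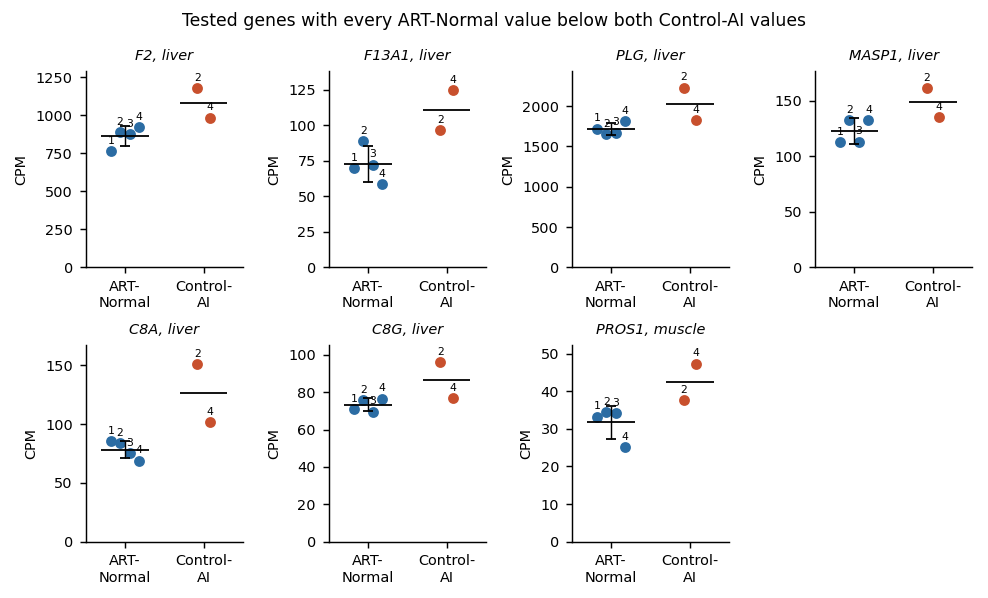
CPM after TMM scaling in single libraries (points, numbered by fetus) of the 7 tested genes in which all 4 ART-Normal values lie below both Control-AI values. Black lines are group means, with the SD as an error bar for the 4 ART-Normal libraries only. Control-AI 2 is the highest library in F2, PLG, MASP1, C8A and C8G, and Control-AI 4 in F13A1 and PROS1.

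Values for the remaining liver genes lay on both sides of 0. In the contact system, F12 had a log2 fold change of -0.29 (SE 0.15), F11 of 0.15 (SE 0.14), KLKB1 of 0.13 (SE 0.17) and KNG1 of 0.11 (SE 0.19). Of the fibrinogen genes, FGB stood at -0.32 (SE 0.27), FGA at -0.18 (SE 0.21) and FGG at -0.03 (SE 0.19). F9 had the highest value of the 36, at 0.34 (SE 0.19), with 290, 240, 246 and 215 CPM in ART-Normal livers and 159 and 234 CPM in Control-AI livers, where again Control-AI 2 lay outside the rest. C3, CFB, CFI and C4BPA lay at -0.20 (SE 0.19), -0.02 (SE 0.17), 0.03 (SE 0.17) and -0.00 (SE 0.15), and C5 at -0.02 (SE 0.16). F8 and CFD had values of -0.44 (SE 0.25) and -0.33 (SE 0.18), MASP2 and TFPI of -0.28 (SE 0.14) and -0.27 (SE 0.20), and PROC and F10 of -0.23 (SE 0.14) and -0.11 (SE 0.16). C9 stood at 0.22 (SE 0.19), and F5, F7, VWF, F13B, PROZ, CPB2, C1R and C1S lay between -0.09 and 0.04. F3, C2, C6, C7 and MBL2 were under the filter in liver, and none of them passed without it, with adjusted p-values of 0.599 to 0.982 by edgeR's quasi-likelihood test.

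Control-AI 2 is 1 of only 2 control livers, so its levels were set against the other 5. Of the 36 genes, 33 were within 1.5-fold of the median of the other 5 livers, with a median ratio of 1.03 and a range from 0.66 in F9 to 1.81 in F8. It was nevertheless the highest of the 6 livers in 14 genes and the lowest in 3, F9, C8B and KLKB1. Among the 9 hepatocyte markers other than FGB, TTR, APOA1, APOB and HNF4A were within 1.5-fold as well, and the other 5 were higher than in any other liver. AHSG, which encodes fetuin-A, was at 142470 CPM against 3736 to 7796 CPM, ALB, albumin, at 71505 CPM against 6483 to 12273 CPM, and AFP, alpha-fetoprotein, at 39470 CPM against 5351 to 12293 CPM. SERPINA1, which encodes alpha-1-antitrypsin and is not among the 9, was at 56356 CPM against 3154 to 7642 CPM. Over the 9 markers, the ratio of Control-AI 2 to the median of the rest ranged from 0.94 to 25.9, with a median of 1.72. The difference from the 36 genes was not tested, and the share of all liver genes within 1.5-fold was not computed. The TMM factor of that library was 0.784, where those of the other livers were 1.02 to 1.10.

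**Figure D4:**
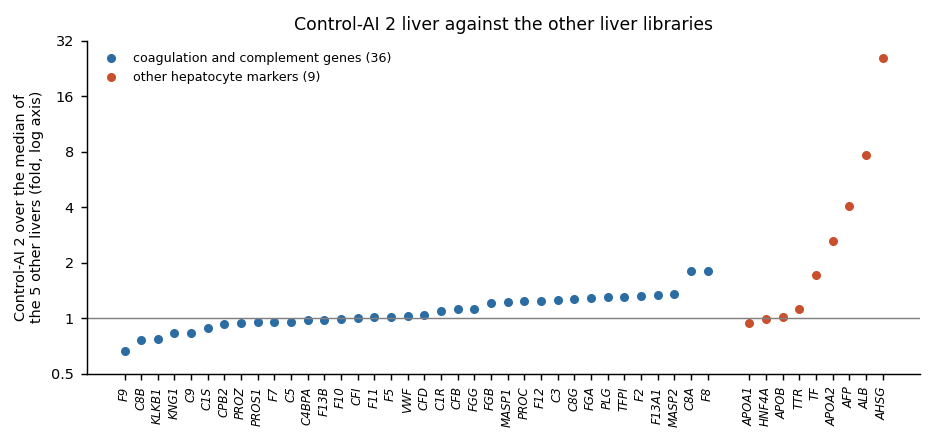
CPM of the Control-AI 2 liver divided by the median of the other 5 livers (log axis) for 36 coagulation and complement genes and 9 other hepatocyte markers, each sorted by value. The coagulation and complement genes lie between 0.66 and 1.81, while the 9 other markers reach from 0.94 to 25.9, the last being AHSG.

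In muscle, 13 of the 41 genes could be tested between conception groups and none passed at an adjusted p of 0.05 by edgeR's quasi-likelihood test, beside 1 of 11695 genes (0.00855%) overall. The median log2 fold change of the 13 was -0.10, with 9 below 0 and 4 above, beside 0.00 over all genes, and the 95% confidence interval lay within 2-fold either way for 12 of them, F3 being the exception. At an unadjusted p under 0.05 there was 1 of the 13, PROS1, where 9.19% of all genes were at that level. The likelihood ratio test of edgeR and DESeq2 called none of the 13 either. PROS1 had 33.3, 34.4, 34.2 and 25.1 CPM in ART-Normal muscle and 37.6 and 47.3 CPM in Control-AI muscle, so the groups did not overlap. Its log2 fold change was -0.42 (SE 0.18, unadjusted p = 0.0358, adjusted p = 0.501), and ART-Normal 4 and Control-AI 4 were the lowest and the highest library. In liver PROS1 had a log2 fold change of 0.09 (SE 0.15). It was the only one of the 13 without overlap, where over all muscle genes 7.22% had ART-Normal below and 8.76% had ART-Normal above.

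The other 12 genes with a muscle level overlapped between the groups. TFPI, VWF and C7 had log2 fold changes of -0.09 (SE 0.17), -0.06 (SE 0.14) and 0.07 (SE 0.23). C1R, C1S and MASP1 stood at 0.27 (SE 0.20), 0.01 (SE 0.16) and 0.25 (SE 0.23). F2 had -0.39 (SE 0.26), F3 -0.34 (SE 0.31), C8G -0.31 (SE 0.31), F8 -0.25 (SE 0.21), CFB -0.22 (SE 0.22) and F13A1 -0.10 (SE 0.20). The summed endothelial markers were at 785 to 882 CPM in ART-Normal muscle and 853 and 850 CPM in Control-AI muscle.

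Several genes that the other muscles held under 5 CPM were higher in the muscle library of Control-AI 2. F7, F12, F5, CPB2, C2, PROZ, F13B, C4BPA and C9 lay within the range of the others. PROC, KLKB1 and MBL2 had no count in that library. Fibrinogen transcripts were present there at 12.1 CPM for FGB, 5.001 CPM for FGA and 3.89 CPM for FGG, where the other 5 libraries had 0.93 to 2.14 CPM, 0.042 to 0.73 CPM and 0 to 0.68 CPM. PLG was at 2.94 CPM against 0.042 to 0.41 CPM, CFI at 2.14 CPM against 0.042 to 0.64 CPM, and C3 at 7.86 CPM against 1.46 to 2.21 CPM. For the 17 genes with 5 CPM or more in every liver and a muscle median under 1 CPM, the muscle level as a percent of the liver level of the same fetus had a median of 0.1502% in Control-AI 2. In the other fetuses that median was 0.00245% to 0.0502%, and Control-AI 2 had the highest value of the 6 fetuses in 9 of the 17. Of the other hepatocyte markers, ALB, TTR, APOA2, APOB and TF were also highest in Control-AI 2 by this measure, APOB with 0.127% against 0.0346% or less. AFP, AHSG, APOA1 and HNF4A were not, and AHSG had 0.1098% there against 0.0307% to 0.336% in the others. What brought these transcripts into that library was not tested.

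MASP2 went far beyond those traces. In muscle it was at 1.94, 1.70, 1.28 and 1.41 CPM in ART-Normal 1 to 4, at 91.0 CPM in Control-AI 2, and at 2.25 CPM in the other control, so that Control-AI 2 alone reached 53.6% of its liver level. In liver MASP2 was at 119, 125, 130 and 116 CPM in ART-Normal and at 170 and 129 CPM in Control-AI. The gene lies on chromosome 16 from 42581858 to 42599302, and 5405 bp of that span overlap TARDBP on the opposite strand, which was at 173 to 239 CPM in muscle and 155 to 205 CPM in liver. F8, which also has genes on the opposite strand, FUNDC2 and F8A1, was likewise highest in Control-AI 2 in both tissues, with 21.1 CPM in liver against 10.7 to 12.6 CPM and 31.2 CPM in muscle against 18.1 to 21.4 CPM. In Control-AI 2, FUNDC2 was at 35.03 CPM in liver against 33.3 to 39.2 CPM. In muscle FUNDC2 was at 37.2 CPM there against 39.0 to 46.3 CPM. F8A1 was at 8.78 CPM in that liver against 7.41 to 10.01 CPM. In muscle F8A1 was highest in Control-AI 2, at 12.2 CPM against 8.57 to 11.8 CPM. TARDBP was at 213 CPM in that muscle. C8G, which shares 46 bp with FBXW5 on the opposite strand, was also highest in Control-AI 2 in both tissues. FBXW5 was at 25.4 CPM in that liver against 15.0 to 23.5 CPM. In muscle FBXW5 was at 27.5 CPM in Control-AI 2 against 19.6 to 24.3 CPM. Whether the counting separated the strands is not given in the sources used here, so the levels of MASP2, F8 and C8G, which have such a neighbour, are uncertain. C8A, F13A1, F2, PLG, MASP1 and PROS1 overlap no other listed gene.

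**Figure D5:**
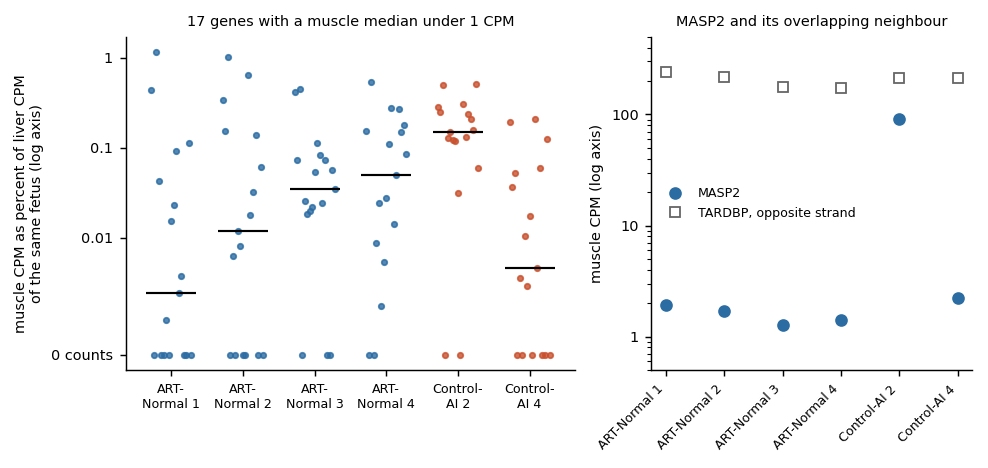
Left, muscle CPM as a percent of liver CPM of the same fetus (log axis) for 17 genes, with 1 point per gene and a bar at the median, which is 0.1502% in Control-AI 2 and at most 0.0502% elsewhere. Right, muscle CPM (log axis) of MASP2 and of TARDBP, which overlaps it on the opposite strand, with MASP2 at 91.0 CPM in Control-AI 2 and 1.28 to 2.25 CPM in the other libraries.

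C3 (2.21 CPM), CFD (2.63 CPM) and MASP2 (2.25 CPM) in Control-AI 4 muscle also lay above all ART-Normal muscles, which reached 2.08, 2.32 and 1.94 CPM. These genes did not reach 5 CPM throughout a muscle group. With no filter on low counts none of the 3 passed, at log2 fold changes of -4.82 for MASP2 (adjusted p = 0.0642), -1.45 for C3 (adjusted p = 0.237) and -0.46 for CFD (adjusted p = 0.783) by edgeR's quasi-likelihood test.

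The question whether the conception groups differ in one tissue otherwise than in the other was put to the interaction of tissue and conception. None of the 38 genes tested passed, as 0% of all 12923 genes did, and 10 were at an unadjusted p under 0.05, beside 5.55% of all genes. Those 10 were F12, FGA, FGB, FGG, PROC, PROS1, MASP2, C3, CFI and C8B. The lowest adjusted p was 0.648 for MASP2, with a log2 difference of 4.58 (SE 1.18) by edgeR's quasi-likelihood test. Without Control-AI 2 this difference was 0.47, and without Control-AI 4 it was 5.38, each with 1 control left. All 10 except PROS1 had muscle levels under 5 CPM outside Control-AI 2, and FGA, FGB, FGG, MASP2, C3, CFI and C8B were highest there.

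Other genes of both systems, 60 by a list of roles, were looked up to set the 41 in their context, and 58 were found. None passed between conception groups among the 43 tested in liver and the 26 tested in muscle. Between the tissues, 38 of the 45 tested were higher in liver and 4 in muscle, beside 40.2% and 39.9% of all genes. More of these genes reached the filter in liver than in muscle, so the filter helped to set these counts too. Antithrombin (SERPINC1), heparin cofactor (SERPIND1), the inhibitor that protein Z assists (SERPINA10) and antiplasmin (SERPINF2) were higher in liver, with log2 fold changes of 8.39, 10.51, 11.77 and 11.50. The 4 higher in muscle were the endothelial receptor thrombomodulin (THBD), at -2.60 (SE 0.21), both plasminogen activators, PLAT at -1.89 (SE 0.19) and PLAU at -1.63 (SE 0.11), and the membrane collectin COLEC12, at -6.84 (SE 0.22). C1QA, C1QB and C1QC, the recognition chains of C1, which macrophages make, lay at -0.31 (SE 0.16), -0.38 (SE 0.14) and -0.36 (SE 0.16) between conception groups in liver, with adjusted p-values of 0.550 to 0.589 by edgeR's quasi-likelihood test.

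Of 8 genes of the vitamin K cycle and of the processing, secretion or cleavage of clotting proteins, 7 were higher in liver. Over all genes tested, 40.2% were. GGCX, the carboxylase, had a log2 fold change of 2.14 (SE 0.092) and VKORC1L1, a vitamin K reductase, one of 0.45 (SE 0.10). MCFD2, which forms the cargo receptor for factors V and VIII with LMAN1, had 70.7 CPM in the Control-AI 2 liver against 146 to 165 CPM in the other livers. In muscle it had 33.3 CPM there against 55.5 to 63.5 CPM, whereas LMAN1 had 126 to 145 CPM in the livers and 54.4 to 64.1 CPM in the muscles.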

How the data were processed

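Poly(A) RNA libraries, strand-specific per the labels, were made from liver and skeletal muscle of 6 fetuses. The authors deposited raw read counts per gene on ARS-UCD1.2, and 12 count columns were used here. In each tissue 7 other columns of counts were left out. The submitters' processing notes name FastQC 0.11.7, HISAT2 2.1.0, Cufflinks, SAMtools, featureCounts and edgeR 3.24.3. Strand handling in counting is not given in the sources used here. The authors' comparison tables (log2 fold changes, log2 CPM, likelihood ratio scores, p-values and FDR) were not used.

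Genes reaching 5 CPM in every library of 1 group were tested with edgeR 4.0.16 (R 4.3.3, limma 3.58.1): TMM scaling, quasi-likelihood test, no block, Benjamini-Hochberg adjustment over all genes, threshold 0.05. Conception was tested within each tissue, and tissue and the interaction over 12 libraries in 4 groups. Printed CPM use TMM within a tissue. Alternatives covered scaling, filter, test (edgeR's likelihood ratio, DESeq2 1.42.0), the replicate block and leaving out each fetus. The code was tested on simulated data. Replicates are separate fetuses. Liver and muscle came from the same animals, and the correlation of their deviations from the group means was 0.449, 0.0876, 0.0865 and 0.567 for ART-Normal 1 to 4. It was 0.683 for the controls, a single value, since the deviations of 2 libraries from their mean mirror each other. Counting intervals (95%) and the floor of 3 counts cover counting error only. Every member is named, with values per library for those called in any conception comparison, without overlap between groups, or at 5 CPM in muscle. The members and lists were chosen with earlier results of these data known. Figures were drawn with matplotlib 3.10.9 and pandas 2.3.3 in Python 3.11.15.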

Additional observations from a re-analysis of the deposited data

Results flagged for a closer look

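In 6 of 81 sets of 4 ART-Normal libraries, 1 library lay far from the other 3, with a gap to the nearest of them, as a share of the whole range, past Dixon's 95% critical value. Chance alone flags about 1 in 20 such sets where values are continuous and normally distributed. Many of the muscle sets rest on few counts, where that rate does not hold. C1R in liver was highest in ART-Normal 4, at 62.0 CPM against 36.9 to 38.7 CPM, a gap of 0.930 of the range. MBL2 in liver was highest in ART-Normal 1, at 4.02 CPM against 0.925 to 1.38 CPM (0.853). F8 in muscle was lowest in ART-Normal 2, at 18.9 CPM against 21.1 to 21.4 CPM (0.888), and PROS1 in muscle was lowest in ART-Normal 4, at 25.1 CPM against 33.3 to 34.4 CPM (0.874). KLKB1 in ART-Normal 1 muscle and C8A in ART-Normal 4 muscle each had the only counts of the 4 libraries, at 0.042 and 0.10 CPM. With no count in the other 3 the gap is always 1.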

How the results depend on the processing

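With 2 control fetuses, of which Control-AI 2 lay apart, the conception comparisons rest largely on 1 library. In liver, where no gene was called, library size alone gave 8 genes, edgeR's likelihood ratio test 89, DESeq2 56, ART-Normal 1 to 3 only 2 and both tissues in one fit 4, with none of the 36 coagulation and complement genes among them. In muscle, with 1 gene called, the likelihood ratio test gave 120, DESeq2 106, and ART-Normal 1 to 3 only and both tissues in one fit 0 each, again with none of the set. For the interaction, with 0 called, the likelihood ratio test gave 98 genes, 1 of them of the set (MASP2), and DESeq2 37. Leaving out 1 fetus gave 0 to 830 genes in liver (0 to 1 of the set), 0 to 1327 in muscle (0 to 4) and 0 to 232 for the interaction (0 to 7), the highest each time without Control-AI 4, when the lone control is assumed to vary like the other group. The 4 in muscle, FGA, FGB, MASP2 and C3, reached 5 CPM only in the control that remained, so the filter chose them for that difference and their passing supports nothing. In the replicate block by label number, 6 genes were called in liver and 90 in muscle, none of the set. The numbers join different fetuses, whose deviations correlated at 0.0277 and -0.136 in liver and -0.0336 and -0.205 in muscle. With 2 controls the deviations of 1 mirror those of the other, so these values cannot tell whether the numbers mark pairs. With the fetus as a block, 10898 genes were called between tissues against 10343 without it and 0 for the interaction, and no call of the set changed. Between tissues, asking for at least 10 counts in every library left 21 of the set to test. All 21 were called, beside 9589 of 12544 genes. They include C2, which the main fit did not test. Over all alternatives 1755 values of single genes kept direction and side of the threshold, 9 newly passed, and 124 that had not passed changed sign. These totals of values cover only genes that the main fit of the same comparison also tested. ART-Normal 1 to 3 only and leaving out ART-Normal 4 are the same fit and were counted under both names. Genes under about 1 CPM in muscle rest on few counts.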
